A study of Bos taurus with 12 samples.

Results

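The day 7 oxidative index of each cow was set against the genes measured in its blood, gene by gene, in 12 of 12 Holstein cows of the study. The oxidative index (OSi) is the deposited ratio of TBARS, thiobarbituric acid reactive substances, to AC, antioxidant capacity. Genes entered when their mean raw count over the 12 libraries was at least 10, which held for 11990 of 27429 genes. The slope of each gene on the index was estimated both across all 12 cows and with a term for treatment, which removes the difference between the 2 group means. Cows were not chosen by any value, whereas the genes named first were chosen by their slope on the index, so their values are a description.

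All cows were female Holsteins, and each gave 1 RNA library from jugular blood drawn on day 7 after calving and kept in RNAlater. The 6 supplemented cows had received trace elements parenterally, and the 6 control cows are labelled as controls. No source used here names the elements, the dose or the day of dosing. None gives the unit, assay or sampled fluid of AC and TBARS either, so their values are read only relative to one another.

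Reactive oxygen species are made by mitochondria and by the oxidative burst of phagocytes, and they oxidise membrane lipids. TBARS assays read aldehydes such as malondialdehyde that are left by lipid oxidation, while antioxidant capacity assays read how well a sample quenches an oxidant. Dairy cows around calving mobilise fat and start lactation, and a ratio of oxidants to antioxidants is a common summary of their oxidant load. Inside cells, peroxiredoxins, glutathione peroxidases, catalase and superoxide dismutases remove these oxidants, and NFE2L2 (NRF2) switches on many of their genes.

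The cells are labelled as white blood cells, and the libraries held leukocyte transcripts. PTPRC, the common leukocyte antigen CD45, stood at 1362 to 1734 CPM (counts scaled to a common total of the library), and the B cell receptor subunit CD79A at 114.8 to 1289. The T cell receptor subunit CD3E stood at 70.12 to 488.9 CPM and the granulocyte receptor CSF3R at 47.26 to 3555. The haemoglobin chain HBB was at most 247.8 CPM after the haemoglobin depletion. The shallowest library held 6.78 M counts (supplemented cow 2) and the deepest 16.9 M (supplemented cow 6). In bulk blood, fewer cells of a type and less RNA per cell cannot be told apart. These markers were chosen after the values were seen. The libraries carried one of 2 first index sequences, one in 5 supplemented and 3 control cows and the other in 1 and 3, and with the index sequence as a covariate 0 genes passed in edgeR on OSi with or without the treatment term (179 at an unadjusted p under 0.05 without it and 215 with it). Nothing in the labels says whether cows shared a day or a batch of any other kind.

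The index itself spread widely. It was 0.720, 0.902, 0.984, 0.594, 0.734 and 0.923 in supplemented cows 1 to 6, and 1.363, 0.531, 1.124, 1.377, 1.638 and 1.710 in control cows 1 to 6. All supplemented cows lay below 5 of the control cows, and control cow 2 had the lowest index of all 12 cows. Supplemented cows averaged 0.810 ± 0.150 and control cows 1.29 ± 0.428 (SD, n = 6 each). The difference was -0.481 (exact two-sided permutation p = 0.0303, adjusted over 3 measures 0.0455). On the log2 scale the same difference was -0.60 (exact permutation p = 0.0563), and leaving out single cows gave -0.397 (without control cow 6) to -0.633 (without control cow 2). The difference no longer passed 0.05 without supplemented cow 1 or 4 or without control cow 1, 4, 5 or 6.

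**Figure D1:**
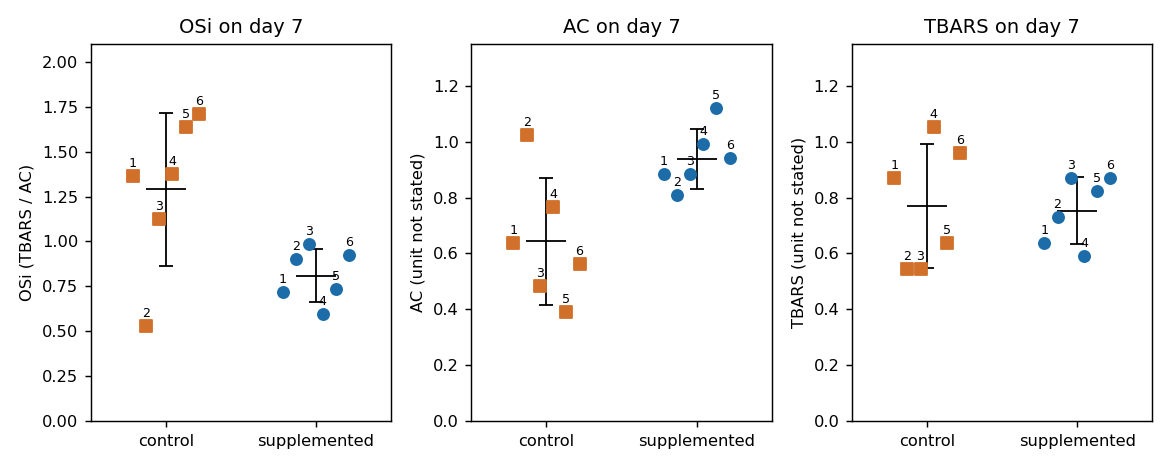
OSi (ratio), AC and TBARS (units not stated) on day 7 for each cow, numbered within its group, with the group mean and SD as a bar. OSi and AC separate all but control cow 2, while TBARS overlaps between the groups.

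AC differed between the groups as well. Its mean was 0.938 ± 0.108 with the supplement and 0.644 ± 0.227 without (SD, n = 6 each; difference 0.294, exact two-sided permutation p = 0.0216, adjusted 0.0455). TBARS averaged 0.753 ± 0.120 and 0.768 ± 0.222 (difference -0.0155, exact permutation p = 0.903). Group membership held 40.3% of the variance of OSi, 45.1% of that of AC and 0.225% of that of TBARS. The change from day 0 to day 7, computed after the other values were seen, of OSi was -0.0469 ± 0.277 with the supplement and -0.0188 ± 0.472 without (SD, n = 6 each; exact permutation p = 0.872). That of AC was -0.0567 ± 0.220 and -0.00442 ± 0.238 (exact permutation p = 0.669). On day 0 AC already averaged 0.995 in supplemented and 0.648 in control cows. The OSi means of supplemented and control cows were 0.8565 and 1.309 on day 0, 1.187 and 1.247 on day 4, and 0.976 and 0.988 on day 14.

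The share of each component in the spread of the index differed between the groups by value, without a test. AC held 68.8% and TBARS 31.2% of the variance of log OSi over the 12 cows. Among supplemented cows the shares were 30.4% for AC and 69.7% for TBARS, and among control cows 58.4% and 41.6%. TBARS took only 8 distinct values on day 7, so several cows share one.

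Across the 12 cows no gene followed the index beyond the spread between cows. By edgeR's quasi-likelihood F test 0 of 11990 genes (0%) passed a Benjamini-Hochberg adjusted threshold of 0.05, with 0.9999 as the lowest adjusted p. An unadjusted p under 0.05 was reached by 237 genes (1.98%), 145 with a positive and 92 with a negative slope, where 600 would be expected by chance. With the treatment term 0 genes passed (0%), the lowest adjusted p was 0.887, and 319 genes (2.66%) had an unadjusted p under 0.05, 218 of them positive. These unadjusted counts rested on single cows. Across 12 cows the count ran from 132 without supplemented cow 4 to 476 without control cow 6. The treatment-term count ran from 121 without control cow 2 to 1123 without control cow 6, and it was above the number expected by chance also without supplemented cow 3 (780). A permutation test of Pearson's r for each gene called 0 genes as well, with 281 at an unadjusted p under 0.05 and 417 after centring by group. The tests had limited reach in simulated counts for these libraries. Of genes with a true slope of 0.5 (log2 per SD of OSi) 10.5% were recovered, with 70% at 1 and 99% at 2. With the treatment term these were 0.5%, 59% and 93.5%. Each setting was 1 draw, with genes independent of one another and no separate treatment effect. Dispersions came from the OSi fit without the treatment term, so the reach in the real libraries may differ.

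**Figure D2:**
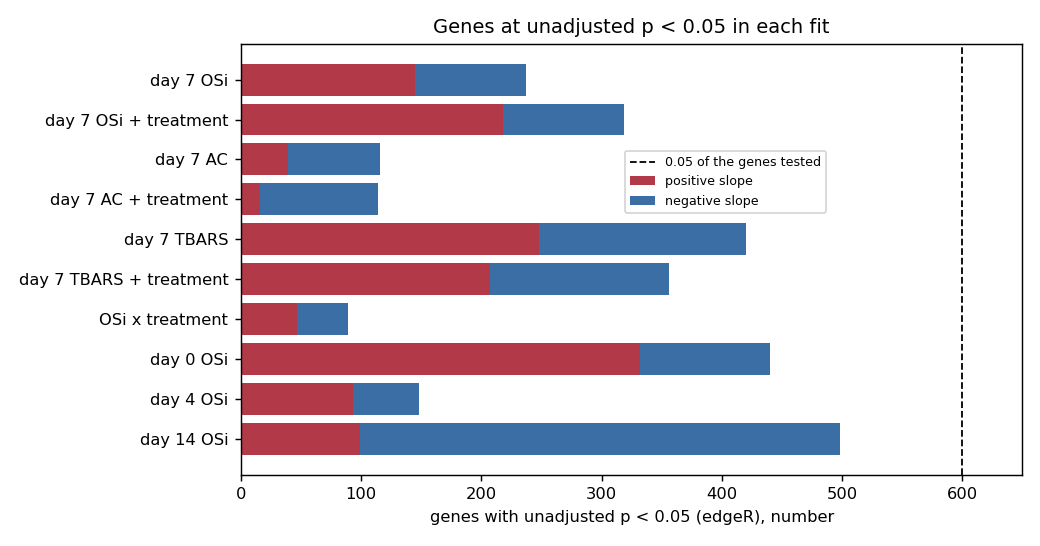
Number of genes with an unadjusted p under 0.05 in edgeR for each measure, split by the sign of the slope, with the number expected by chance as a dashed line at 600. With all 12 cows every bar ends below the line, and the day 7 OSi bars stand at 237 and 319.

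The genes with the lowest p values are given as values, with the slope as log2 change per SD of OSi (0.395). They were picked for this relation, so no test is attached to single genes. Each had an edgeR adjusted p of 0.9999 across the 12 cows and, for Pearson's r, a permutation p of 0.9998 after adjustment over 11990 genes.

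Among genes with a positive slope, CCNL2, a cyclin tied to RNA splicing, had the largest r of all genes tested. Its level was 110.0 CPM, here after TMM scaling, in supplemented cow 4 at the lowest and 154.8 in supplemented cow 5 at the highest, with a median of 138.9 in that group. In control cows it ran from 125.1 to 206.6 CPM with a median of 163.6, and the 2 highest levels were those of control cows 6 and 5, the cows with the highest index. The groups overlapped, and the slope was 0.22 ± 0.06 (SE). Pearson's r was 0.838 and Spearman's rho 0.776 over 12 cows, and r was 0.635 without control cows 5 and 6, the 2 cows farthest from the median index.

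FOXS1, a forkhead transcription factor, ran from 2.652 to 7.398 CPM in supplemented cows and from 4.331 to 15.27 CPM in control cows, with medians of 5.399 and 8.209. Its slope was 0.52 ± 0.13 (SE), and the highest level was in control cow 5. ITGA10, the alpha subunit of a collagen-binding integrin, had a slope of 0.41 ± 0.10, with 5.950 to 8.938 CPM in supplemented and 4.462 to 14.10 CPM in control cows. LENG8 had a slope of 0.29 ± 0.09 and was highest in control cow 6 at 820.6 CPM. The remaining 6 genes on this side were JMY, an actin nucleator, RRP8, a ribosomal RNA methyltransferase, OTUD1, a deubiquitinase, the chemokine GRO1, the sperm calcium channel subunit CATSPERD, and GBP2, an interferon-induced GTPase.

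Several of these rested on 1 or 2 control cows. GBP2 stood at 195.2 CPM in control cow 6 and between 19.12 and 40.06 CPM elsewhere, and its slope of 0.57 became -0.053 without control cow 6. GRO1 reached 2132 CPM in control cow 5 against at most 494.2 CPM elsewhere, with a slope of 1.24 ± 0.40 that was 0.41 without control cow 5. Within the 6 supplemented cows alone, the slopes of JMY, OTUD1, GRO1, CATSPERD and GBP2 were negative, at -0.15, -0.16, -0.22, -0.63 and -0.32. The r of GRO1 in these cows was 0.099, so its sign depended on the measure, and that of OTUD1 was -0.057. CCNL2, ITGA10, LENG8 and RRP8 had positive correlations in both groups, with r of 0.631, 0.423, 0.702 and 0.645 in supplemented cows.

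On the negative side TPPP, a protein that bundles microtubules, had the steepest slope of the 10 genes at -0.65 ± 0.19 (SE). It ran from 2.844 to 12.62 CPM in supplemented cows (median 10.32) and from 2.471 to 16.14 CPM in control cows (median 5.232). The highest level was that of control cow 2, which had the lowest index, and the lowest that of control cow 6, which had the highest index. With the treatment term its slope was -0.91 ± 0.22, and r was -0.850 in supplemented and -0.857 in control cows.

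PRDX3, the mitochondrial peroxiredoxin that removes hydrogen peroxide, was the 1 antioxidant enzyme among the 10 negative genes. Its level ran from 92.21 to 116.8 CPM in supplemented cows (median 95.96) and from 79.19 to 126.7 CPM in control cows (median 87.28), and control cows 4, 5, 1 and 6 were the 4 lowest cows. The slope was -0.15 ± 0.05 (SE), r was -0.751 and rho -0.748, and r was -0.790 without control cows 5 and 6. SDHD, a membrane subunit of succinate dehydrogenase in the respiratory chain, had a slope of -0.27 ± 0.10, with 49.16 CPM in control cow 4 and 131.6 CPM in control cow 2 as extremes.

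MED27, a Mediator subunit, had a slope of -0.16 ± 0.06 and an r of -0.816. The rest were VPS18, a subunit of endosomal tethering complexes, the kinase VRK1, the histone chaperone RBBP4, BCAS3, UPRT and STEEP1. VPS18 stood at 77.57 CPM in control cow 2 and at most 54.98 CPM in the others. Its slope of -0.40 ± 0.12 was 0.13 in supplemented cows alone, and that with the treatment term was 0.025 without control cow 2.

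**Figure D3:**
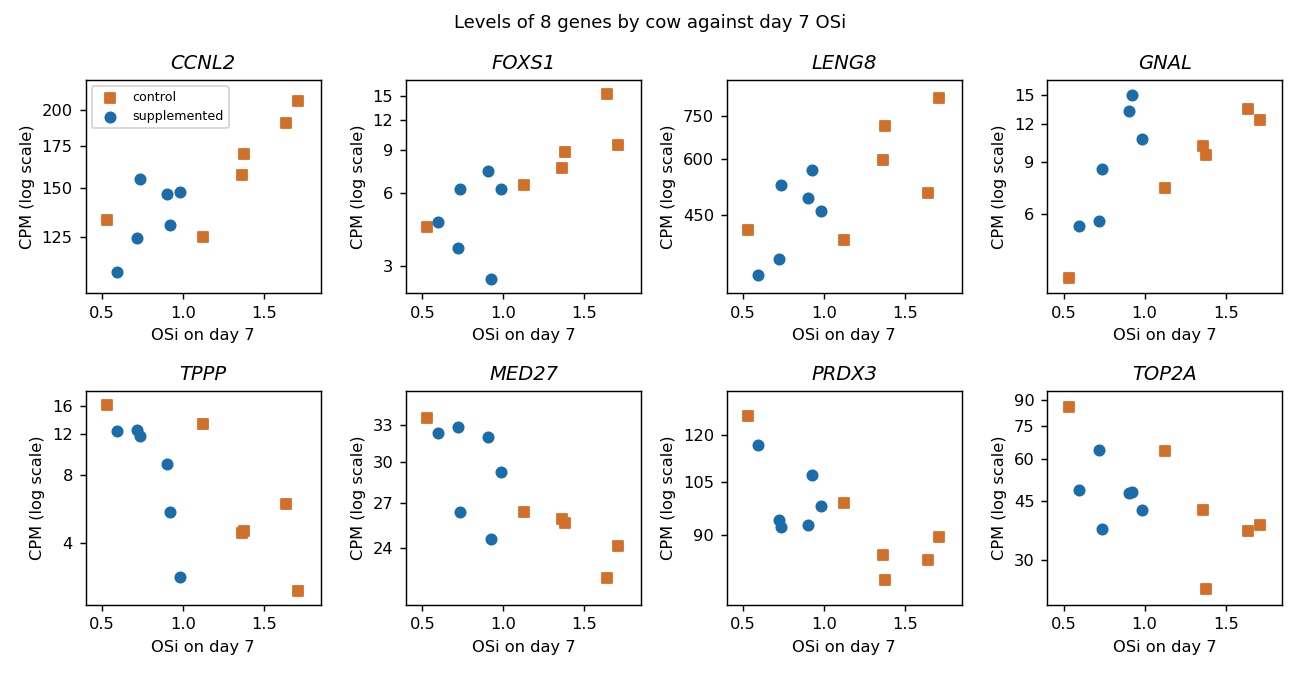
Level of 8 genes (CPM, log axis) in each cow against its day 7 OSi, with control cows as squares and supplemented cows as circles. CCNL2, FOXS1, LENG8 and GNAL had positive slopes and TPPP, MED27, PRDX3 and TOP2A negative ones, and none passed an adjusted p of 0.05 in edgeR.

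With the treatment term other genes came first, and the edgeR adjusted p was 0.887 for all of those named here. GNAL, a stimulatory G protein alpha subunit, had the lowest p of that fit. Its level ran from 5.483 to 15.0 CPM in supplemented cows (median 9.609) and from 3.675 to 13.49 CPM in control cows (median 9.805). The lowest control level was that of control cow 2 and the 2 highest were those of control cows 5 and 6. The slope with the treatment term was 0.71 ± 0.15 (SE), and r was 0.870 within supplemented and 0.991 within control cows, against 0.650 over all 12 cows.

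NUP42, a nucleoporin, had a slope of 0.98 ± 0.28 with the treatment term, CFAP119 of 0.34 ± 0.10 and the zinc finger factor GZF1 of 0.30 ± 0.09. SDS, serine dehydratase, spanned 9.187 CPM in control cow 2 to 5762 CPM in supplemented cow 6 and had a slope of 3.08 ± 0.97. STEAP4, a metalloreductase of iron and copper, had a slope of 2.90 ± 0.91, or 1.81 without control cow 5, where its level was highest at 109.0 CPM.

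On the negative side of that fit were genes of cell division. TOP2A, the topoisomerase of replicating cells, ran from 37.0 to 63.79 CPM in supplemented and from 24.64 to 85.57 CPM in control cows, with a slope of -0.43 ± 0.12 with the treatment term. The mitotic transcription factor FOXM1 had a slope of -0.57 ± 0.18, the mitotic kinase AURKB of -0.52 ± 0.17 and UHRF1, which maintains DNA methylation, of -0.50 ± 0.16. In control cows the 2 highest FOXM1, AURKB and UHRF1 levels were those of control cows 2 and 3, the control cows with the lowest index. In control cows r was -0.79 for TOP2A, -0.85 for FOXM1, -0.79 for AURKB and -0.78 for UHRF1. In supplemented cows the same r were -0.23, -0.19, 0.26 and -0.20. The index spread less in supplemented cows (SD 0.150 against 0.428), and a narrow spread can lower r. The edgeR test of a difference of slopes between the groups called 0 genes.

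Gene lists are described by their counts and medians, beside all genes tested, of which 49.8% had a positive slope across 12 cows (median -0.00051). With the treatment term 55.2% were positive (median 0.025). The lists were chosen with earlier results of these data known. Of cell cycle and mitosis genes, 38 of 40 had a negative slope across 12 cows (median -0.13), and 2 of them, MAD2L1 and TOP2A, had an unadjusted p under 0.05 against 1.98% of all genes. With the treatment term 37 of 40 were negative (median -0.26), 12 of them with an unadjusted p under 0.05 (2.66% of all genes in either direction). The median stayed negative without each single cow (-0.20 to -0.08 across 12 cows), but it was -0.0075 in supplemented cows alone against -0.30 in control cows alone.

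The energy and protein turnover lists had more negative than positive slopes across 12 cows. Of nuclear genes of the respiratory chain, 69 of 74 had a negative slope (median -0.06), with SDHD the 1 member at an unadjusted p under 0.05. Of proteasome subunits 36 of 37 were negative (median -0.06), with PSMA3, a subunit of the 20S core, at -0.18 ± 0.07 (SE). Of cytosolic ribosomal proteins 66 of 76 were negative (median -0.03, with slopes from -0.09 to 3.38), and of mitochondrially encoded genes 11 of 13 (median -0.08). Medians in supplemented cows alone were 0.01 for the respiratory chain and 0.01 for the proteasome. In control cows alone they were -0.09 and -0.08, without a test. The fit with the measured neutrophil score as a covariate gave medians of -0.05 for the respiratory chain, -0.06 for the proteasome and 0.03 for ribosomal proteins.

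**Figure D4:**
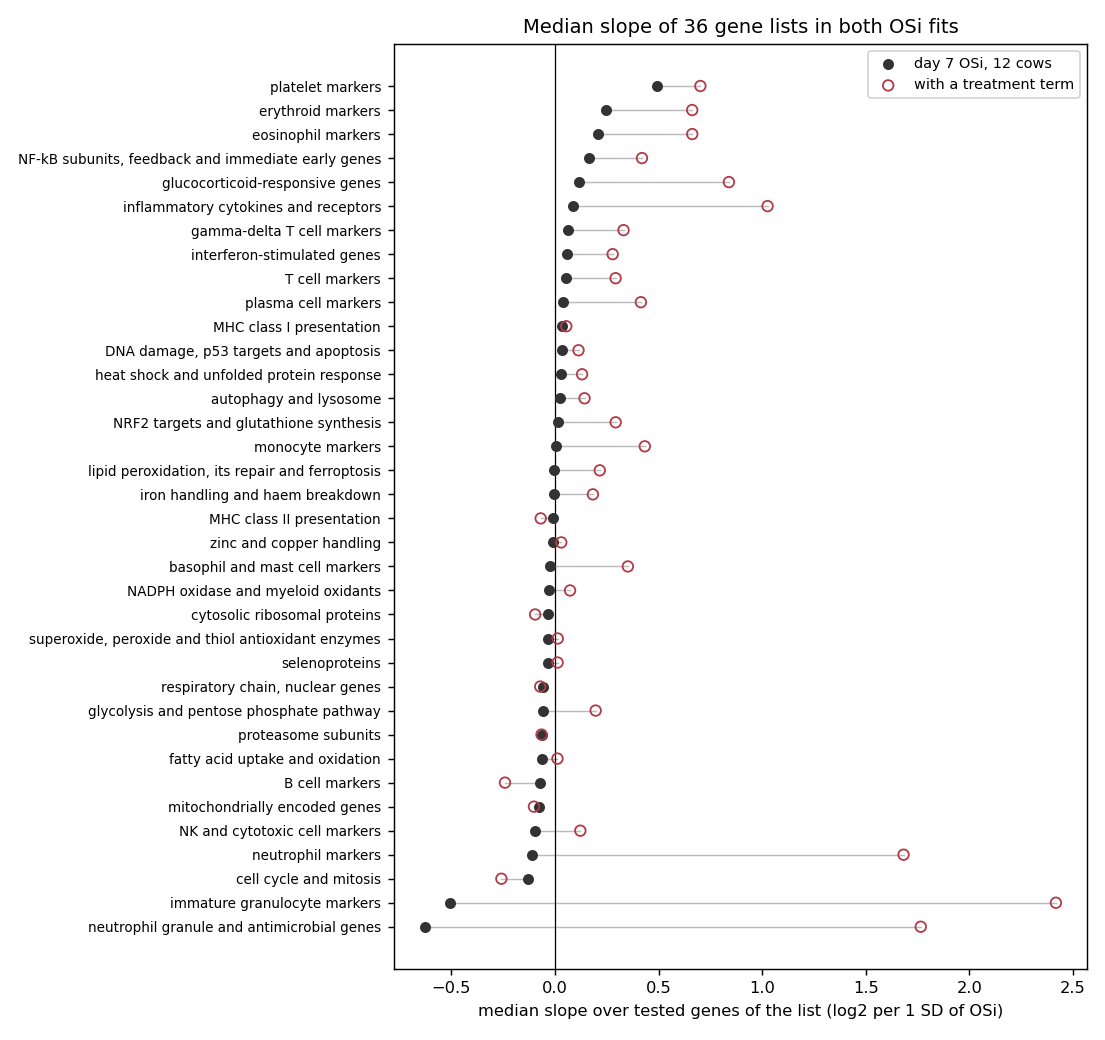
Median slope (log2 per SD of OSi) of the tested genes of 36 lists, across 12 cows (filled) and with a treatment term (open). Neutrophil granule genes move from -0.63 to 1.77 between the fits, while respiratory chain and proteasome genes keep a median between -0.06 and -0.07.

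Inflammatory genes leaned the other way. Of NF-kB subunits, feedback and immediate early genes, 34 of 43 had a positive slope (median 0.17), 5 with an unadjusted p under 0.05 against 1.98% of all genes. ICAM1, a leukocyte adhesion molecule, had a slope of 1.27 ± 0.46 and FOSB, an immediate early factor, of 0.83 ± 0.30. In control cow 5 ICAM1 stood at 255.0 CPM, against 1.625 to 38.17 CPM in the rest, and its slope was -0.062 without that cow. The list median was 0.0056 without control cow 5. It was 0.42 with the treatment term, where 7 members had an unadjusted p under 0.05 against 2.66% of all genes. That treatment-term median ran from 0.22 without control cow 5 to 0.62 without control cow 2, and was 0.07 with the neutrophil score as a further covariate. In supplemented and control cows alone the list median was 0.75 and 0.32, without a test.

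Of inflammatory cytokines and receptors, 26 of 39 were positive across 12 cows (median 0.09) and 37 of 39 with the treatment term (median 1.03). An unadjusted p under 0.05 was reached by 6 and 7 of them, against 1.98% and 2.66% of all genes. With the neutrophil score as a further covariate the treatment-term median was 0.04. The score averages neutrophil markers and shares the receptors CXCR1 and CXCR2 with this list, so the 2 are not independent. The chemokine CCL20 stood at 16.6 CPM in control cow 5 and at 0 to 0.5852 CPM in all the rest. Its slope was 1.98 ± 0.55, its rho 0.0245 and its r 0.0485 without control cows 5 and 6, and without control cow 5 alone its mean count of 2 was under the minimum. CCL3, another chemokine, had a slope of 1.10 ± 0.39, or 0.096 without control cow 5. IL1B, the inflammasome cytokine, ran from 12.79 to 258.4 CPM in supplemented cows (median 135.0) and from 7.744 to 1699 CPM in control cows (median 91.06), with a slope of 1.34 ± 0.54 (SE), or 0.19 without control cow 5. TNF stood at 265.2 CPM in control cow 5 and between 6.178 and 37.0 CPM in every other cow, and its slope of 1.0 ± 0.37 was -0.37 without control cow 5. The list median across 12 cows was -0.15 without control cow 5. With the treatment term the list median ran from 0.71 without control cow 5 to 1.395 without control cow 2. In supplemented and control cows alone it was 1.62 and 0.76, without a test. Platelet markers had 9 of 10 positive slopes (median 0.49) and a median of -0.13 without control cow 5.

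Antioxidant lists had medians close to 0 across 12 cows, while single members ranged widely. Of superoxide, peroxide and thiol antioxidant enzymes, 10 of 32 had a positive and 22 a negative slope (median -0.03, slopes from -0.65 to 0.54), and 18 and 14 with the treatment term (median 0.01). Of NRF2 targets and glutathione synthesis genes 21 of 33 were positive (median 0.02), of lipid peroxidation and ferroptosis genes 18 of 37 (median -0.0034), and of selenoproteins 5 of 15 (median -0.04). In the antioxidant enzyme list PRDX3 was the 1 member with an unadjusted p under 0.05, and in the NRF2 list there were 0. Of NRF2 and glutathione genes 28 of 33 were positive with the treatment term (median 0.29), and the median was -0.06 with the neutrophil score as a further covariate. In supplemented and control cows alone the NRF2 list median was 0.66 and 0.17, without a test. Supplemented cow 6 had the highest mean log2 CPM of this list, at 6.165.

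SOD1, the copper and zinc superoxide dismutase, ran from 93.48 to 170.5 CPM in supplemented cows (median 144.7) and from 94.4 to 180.8 CPM in control cows (median 128.9). Catalase (CAT) ran from 54.04 to 95.34 CPM (median 75.67) and from 51.86 to 88.59 CPM (median 68.49). GPX1, the cytosolic glutathione peroxidase, had medians of 600.8 and 626.9 CPM and GPX4, which reduces lipid hydroperoxides, of 49.73 and 51.19 CPM. The groups overlapped in each of these genes, and each had an edgeR adjusted p of 0.9999 on OSi.

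SOD2, the mitochondrial manganese superoxide dismutase, was set apart by 1 cow, with 4932 CPM in supplemented cow 6 and 35.75 to 347.0 CPM in the other cows. NFE2L2 had medians of 44.27 and 35.0 CPM in supplemented and control cows, HMOX1, which degrades haem, of 31.28 and 24.58 CPM, and CYBB, the catalytic subunit of the phagocyte NADPH oxidase, of 518.1 and 518.4 CPM. TXNRD1, thioredoxin reductase, had medians of 149.5 and 150.2 CPM. Of 21 genes listed for oxidant and inflammatory roles, 19 passed the count minimum, and NQO1 and SLC7A11 did not.

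Neutrophil genes changed sign between the 2 fits. Of 31 neutrophil granule and antimicrobial genes, 25 had a negative slope across 12 cows (median -0.63), and 31 of 31 a positive slope with the treatment term (median 1.77), with 0 at an unadjusted p under 0.05 in either fit. Supplemented cow 6, whose index was 0.923, had a mean log2 CPM of 8.21 over this list, against 1.10 to 5.204 in the rest. S100A12, a neutrophil calcium-binding protein, stood at 38990 CPM in that cow and at most 5485 CPM elsewhere. Without supplemented cow 6 the medians were 0.49 and 0.81. With the neutrophil score as a covariate they were -0.21 and -0.35. That score averages neutrophil markers and shares members such as CD177 with this list, so a change of these medians was partly built in. Members that passed the count minimum through that cow alone are counted here.

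**Figure D5:**
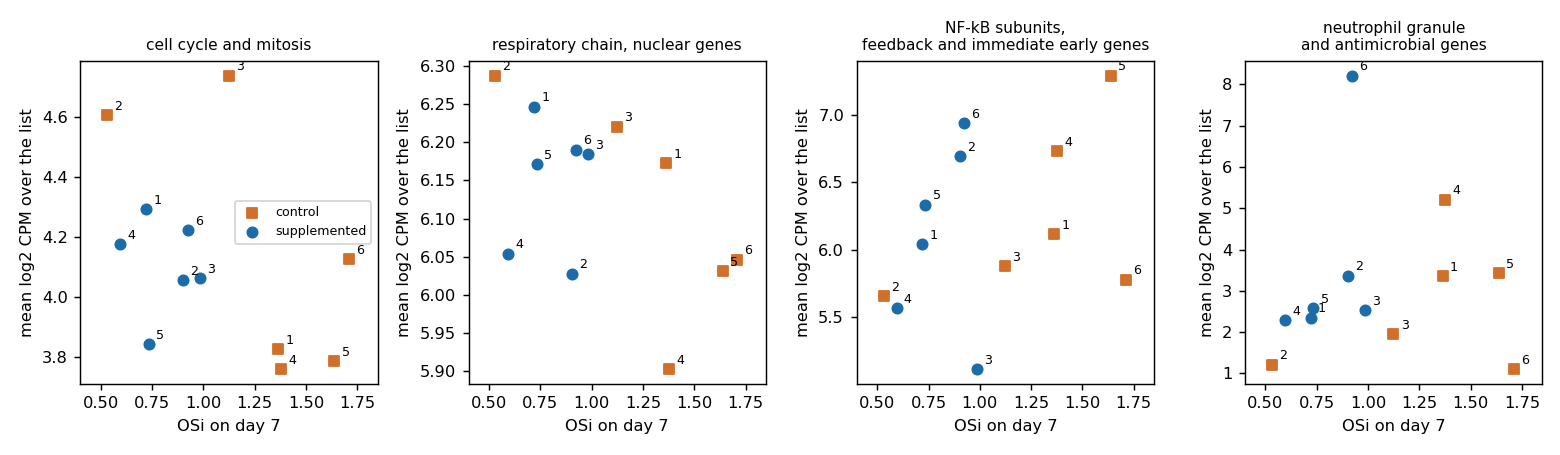
Mean log2 CPM over 4 gene lists in each cow against its day 7 OSi, with cows numbered within their group. Supplemented cow 6 stands at 8.21 for neutrophil granule genes, and control cow 5 is the highest cow for NF-kB and immediate early genes.

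Each cow also had a score per cell type, averaged as log2 CPM across that type's markers. Over 12 marker lists Pearson's r with OSi ran from -0.123 (NK and cytotoxic cells) to 0.204 (plasma cells) over 12 cows, and 0 lists passed (lowest permutation p = 0.5195, adjusted 0.979). The neutrophil score had r of 0.176 and rho of 0.245 (permutation p = 0.595 and 0.446, adjusted 0.979 and 0.956), and r of 0.413 without control cows 5 and 6. B cell markers had 15 of 17 negative slopes across 12 cows and 17 of 17 with the treatment term (median -0.24), and the median was 0.06 with the neutrophil score as a covariate.

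Of 6 library measures 0 passed. The percent of counts in mitochondrially encoded genes had r of -0.345 and rho of -0.636 (permutation p = 0.277 and 0.0297, adjusted 0.783 and 0.178), and r of -0.304 without control cows 5 and 6. It ran from 1.75% in supplemented cow 6 to 4.66% in supplemented cow 1, and its part in the list medians was not tested. The first principal component held 56.6% of the variance of log2 CPM and had r of 0.121 and rho of 0 with OSi (permutation p = 0.707 and 1).

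AC and TBARS, the 2 parts of the index, were fitted in the same way, and they share cows and values with OSi. With AC 0 genes passed (0%), and 116 (0.967%) had an unadjusted p under 0.05, or 114 (0.951%) with the treatment term. With TBARS 0 genes passed (0%), and 420 (3.5%) had an unadjusted p under 0.05, or 356 (2.97%) with the treatment term. With all 12 cows these 4 counts lay under the 600 expected by chance. Leaving out single cows gave 75 to 289 and 27 to 222 for AC without and with the treatment term, and 275 to 591 and 205 to 721 for TBARS, where 721, without control cow 5, was above chance.

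Genes at the top of the OSi fit divided between the parts. LENG8 had a slope of 0.33 ± 0.07 (SE) on TBARS and -0.13 ± 0.12 on AC, and TPPP of -0.69 ± 0.17 on TBARS and 0.29 ± 0.22 on AC. FOXS1 had a slope of -0.46 ± 0.14 on AC and 0.11 ± 0.20 on TBARS, and JMY of -0.34 ± 0.11 and 0.08 ± 0.14. Other genes with low p on TBARS were STK19 (0.29 ± 0.07), DGAT1, the enzyme that completes triglyceride synthesis (0.21 ± 0.05), and the mitotic spindle gene NUSAP1 (-0.40 ± 0.09). The edgeR adjusted p was at least 0.9928 in each of these fits.

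Of all genes tested, 51.4% had a positive slope on TBARS and 52.06% on AC. Cell cycle genes had negative slopes on TBARS in 39 of 40 cases (median -0.21), 15 with an unadjusted p under 0.05 against 3.5% of all genes. On AC they were positive in 23 of 40 (median 0.0071), near the share of all genes. Respiratory chain genes were negative on TBARS in 57 of 74 (median -0.05) and positive on AC in 62 of 74 (median 0.03). NF-kB and immediate early genes were negative on AC in 31 of 43 (median -0.12, or 0.07 without control cow 5) and positive on TBARS in 27 of 43 (median 0.07). Neutrophil granule genes were positive on TBARS in 30 of 31 (median 2.23), 16 with an unadjusted p under 0.05 against 3.5% of all genes, and 12 with the treatment term against 2.97%. On AC 30 of 31 were positive (median 1.42), 3 with an unadjusted p under 0.05 against 0.967%. Without supplemented cow 6 the neutrophil granule medians were 0.58 on TBARS and -0.31 on AC. Members that passed the count minimum through that cow alone are counted here, such as CATHL4 (39.95 CPM there, at most 0.1432 CPM elsewhere). The members were high together in that cow, so their counts at an unadjusted p under 0.05 are a description and no independent support.

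Whether a gene's slope on OSi differed between supplemented and control cows was tested directly by the interaction, and 0 genes passed in edgeR (0%; lowest adjusted p of 1). Without adjustment 89 genes (0.742%) lay under 0.05, and this count was 44 without supplemented cow 5 and 1566 without supplemented cow 3, which is above the number expected by chance. Other single cows gave 57 to 216.

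The index of the same cows on other days was not used to choose any gene. Its correlation with the day 7 index was 0.606 for day 0 (rho 0.615, permutation p = 0.0292 and 0.0376, adjusted over 3 days 0.0876 and 0.113), 0.139 for day 4 (rho 0.0769, permutation p = 0.668 and 0.818) and 0.265 for day 14 (rho 0.329, permutation p = 0.402 and 0.30) over 12 cows. For day 0 r was 0.155 without control cows 5 and 6 and 0.401 after centring by group. In edgeR 0 of 11990 genes passed with the index of day 0, day 4 or day 14 (0% each), and 440 (3.67%), 148 (1.23%) and 498 (4.15%) had an unadjusted p under 0.05. Single cows moved these counts. Day 0 gave 149 without control cow 5 and 949 without control cow 6, day 4 gave 124 without supplemented cow 4 and 389 without control cow 6, and day 14 gave 99 without supplemented cow 6 and 1408 without supplemented cow 2.

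Slopes of the day 7 RNA on the other days' index differed in sign between lists, without a test. Of all genes tested, 50.83% had a positive slope on the day 0 index, 51.6% on day 4 and 53.06% on day 14. On the day 0 index 38 of 39 inflammatory cytokine and receptor genes were positive (median 0.53), 10 with an unadjusted p under 0.05 against 3.67% of all genes, and on the day 14 index 37 of 39 were negative (median -0.61). Interferon-stimulated genes were positive in 42 of 44 on day 0 (median 0.27) and negative in 41 of 44 on day 14 (median -0.22), 10 of these with an unadjusted p under 0.05 against 4.15% of all genes. Cell cycle genes were negative in 26 of 40 on day 0 (median -0.04) and positive in 39 of 40 on day 4 (median 0.12). The respiratory chain list was negative in 55 of 74 on day 0 and in 58 of 74 on day 4. Without supplemented cow 6 the day 14 medians were -0.13 for inflammatory genes and -0.10 for interferon-stimulated genes. Without control cow 5 the day 0 medians were 0.34 and 0.09, and that of cell cycle genes was 0.19. With the neutrophil score, which shares CXCR1 and CXCR2 with the inflammatory list, as a covariate the inflammatory medians were 0.20 on day 0 and -0.029 on day 14.

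Enzyme activities and milk were compared with the day 7 index in the same cows. Glutathione peroxidase activity had r of -0.279 and rho of -0.161 over 12 cows (permutation p = 0.39 and 0.618). Superoxide dismutase activity had r of -0.0524 and rho of 0.0629 (permutation p = 0.869 and 0.851). Milk on day 30 had r of 0.288 and rho of 0.30 (permutation p = 0.363 and 0.343). Centred by group its r was 0.634 (permutation p = 0.0197, adjusted over 3 measures 0.0592), with r of 0.709 in supplemented cows (exact permutation p = 0.119) and 0.717 in control cows (exact permutation p = 0.10). Over all cows r for milk was -0.0425 without control cows 5 and 6.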

How the data were processed

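Blood RNA of 12 cows was sequenced after haemoglobin depletion as paired 150-base reads on an Illumina NovaSeq, per the labels' protocols. Per the submitters' processing notes, the build was ARS-UCD1.2 and the tools included STAR, featureCounts, FastQC and DESeq2. No source used here gives the annotation or strand setting, so reads of overlapping, antisense or closely similar genes may be split or merged. Raw gene counts were used as deposited. OSi, AC, TBARS, enzyme activities and milk were deposited per cow without units. Base quality was deposited per library as a mean score and as the percent of bases past set limits, per the file headers. OSi equalled TBARS divided by AC within 4.29e-10.

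Cows were grouped by the treatment label and are separate animals as far as the labels say, and replicate numbers follow accession order. Genes averaging 10 or more raw counts were fitted with edgeR 4.0.16 (TMM scaling, robust quasi-likelihood F test, two-sided) in R 4.3.3, on the measure divided by its SD over 12 cows. P-values were adjusted by Benjamini-Hochberg over 11990 genes, with a threshold of 0.05. The SE is the slope divided by the square root of F. Log2 CPM used a prior count of 2. Correlations used 100000 pairings, within groups where centred, and group differences all 924 splits (Python 3.11.15, numpy 2.4.6, scipy 1.17.1, pandas 2.3.3). Simulated counts with 200 altered genes among 11990 were used to check the edgeR fit. Depth was 6.78 M to 16.9 M counts a library.

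The genes named were the 10 with the lowest p in each direction with a symbol and at least 5 CPM (6 with the treatment term, 3 for AC and TBARS), up to 2 per list, and 21 fixed genes. The 36 lists held 998 names, of which 930 were found by symbol and 866 passed the count minimum. Members, lists and rules were chosen with earlier results of these data known. Alternatives were DESeq2 1.42.0, limma-voom (limma 3.58.1), other scalings and filters, covariates, centring, single groups and omission of cows. The filtered counts and the authors' deposited comparison table were not used.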

Additional observations from a re-analysis of the deposited data

Results flagged for a closer look

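In 146 groups of 6 cows, 11 values stood apart from the nearest cow by more than the 95% critical value of Dixon's test, where chance alone flags about 1 group in 20. Supplemented cow 6 held 4 of them: an immature granulocyte marker score of 6.49, a neutrophil marker score of 9.95 (nearest cow 6.1), 1.75% of counts in mitochondrially encoded genes (nearest 3.66%) and a log2 CPM of 6.25 for FOSB (nearest 4.24). Control cow 5 held 3: a second principal component of -37.5 (nearest -0.627) and a log2 CPM of 4.07 for the chemokine CCL20 (nearest -0.651) and of 8.05 for TNF (nearest 4.07). Control cow 6 held 2, with a log2 CPM of 7.61 for GBP2 (nearest 5.23) and of 6.6 for the autophagy gene ATG13 (nearest 6.11). The others were VPS18 in control cow 2 (6.28, nearest 4.91) and OTUD1 in supplemented cow 5 (4.81, nearest 4.12). Control cows 5 and 6 were the cows with the highest day 7 index. The slope of ATG13 on OSi was 0.16 with all cows and 0.048 without control cow 6. That of CCL20 could not be estimated without control cow 5, since its mean count was then 2, under the minimum.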

How the results depend on the processing

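Of 284 alternatives of the edgeR gene fits, 275 gave 0 genes, as did all 30 for OSi across 12 cows and 27 of 28 for OSi with the treatment term; leaving out each cow gave 0 genes in every fit. DESeq2 gave 30 genes for OSi with the treatment term, 2 for TBARS, 8 for TBARS with the treatment term, 1 for the interaction, 3 for the day 4 and 1 for the day 14 index. Fits without a count filter gave 1 gene for AC and 2 for day 4, and a base quality covariate, added after seeing the data, gave 1 for day 0. The cause was not tested. The OSi difference between groups was -0.601 on the log2 scale (no longer past 0.05) and -0.633 to -0.397 with single cows left out, missing the threshold without supplemented cows 1 or 4 or control cows 1, 4, 5 or 6. That of AC was 0.244 to 0.371.

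Of 1625 alternative slopes of 58 results, 1601 kept their direction and side of the threshold, 5 passed in DESeq2 and 19 reversed. All 58 were chosen for a low unadjusted p on this index in the same cows, and none passed in edgeR. Keeping their direction is therefore no independent support for these slopes. In supplemented cows alone the reversed slopes were JMY -0.15, OTUD1 -0.16, GRO1 -0.22, CATSPERD -0.63, GBP2 -0.32, VPS18 0.13, PTGS2 -0.52, GBP5 -0.050 and TNF -1.03. Pearson's r in these cows was positive for GRO1 (0.099) and GBP5 (0.045). Leaving out control cows 5 and 6 gave GBP2 -0.15 and TNF -0.23; leaving out supplemented cow 6 and control cow 5 gave PTGS2 -0.25, ICAM1 -0.061 and TNF -0.38. With single cows left out the slopes ran from -0.053 (without control cow 6) to 0.669 for GBP2, and, lowest without control cow 5, from -0.245 to 1.09 for PTGS2, -0.062 to 1.52 for ICAM1 and -0.373 to 1.17 for TNF. For VPS18 with the treatment term they ran from -0.562 to 0.025 (without control cow 2). The TBARS difference turned to 0.0059 (log2), 0.0225 (medians) and -0.0603 to 0.0417 with a cow left out, and the milk correlation to -0.0425 without the 2 farthest cows. No paired analysis was possible because replicate numbers follow accession order and pair no cows. With 12 cows and a common biological coefficient of variation of 0.486, slopes under 1 (log2 per SD) in single genes were often not detectable in simulated counts. In the data steeper slopes also failed to pass in edgeR, such as 3.08 for SDS and 2.90 for STEAP4 with the treatment term.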

Other observations

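Genes that DESeq2 called with the day 7 index and the treatment term were looked at by cow, although edgeR called 0 of them. DESeq2 gave 30 genes at an adjusted p under 0.05, 29 with a positive slope. Of these, 26 were highest in supplemented cow 6, 15 of them at least 10 times the level of the next cow, 9 were known by identifier alone, and 7 (23.3%) stood in a neutrophil or immature granulocyte list, against 40 (0.334%) of the 11990 genes tested. They included the neutrophil chemokine receptors CXCR1 (495.4 CPM in supplemented cow 6, at most 188.7 CPM elsewhere) and CXCR2 (506.4 CPM), the neutrophil surface protein CD177 (103.3 CPM, at most 3.923 CPM elsewhere) and the granule protein CRISP3 (53.12 CPM). GNAL, IL1B, SDS, STEAP4 and TPPP, named above for their low p in edgeR, were also among them, with DESeq2 adjusted p of 0.00973, 0.0175, 0.000344, 0.00973 and 0.0350.

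The DESeq2 count depended on single cows. It was 3 without supplemented cow 4, 4 without control cow 2 and 84 without control cow 6. Without supplemented cow 6 it was 15, of which 12 were among the 30. Of the 4 genes called without control cow 2, 0 were among the 30. Control cow 2, with the lowest day 7 index, had the lowest mean log2 CPM of inflammatory cytokines and receptors at 2.71. Control cow 6, with the highest index, was close to it at 2.83, as was supplemented cow 3 at 2.81, against up to 6.32 in supplemented cow 6. LENG8 and DGAT1 were the 2 genes that DESeq2 called with TBARS across 12 cows (slopes 0.33 ± 0.07 and 0.21 ± 0.05, SE; adjusted p = 0.026 each). CXCR1, CXCR2, CD177 and CRISP3 were chosen after their values were seen.

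RPL12, a ribosomal protein gene, was listed at 446.1 to 845.7 CPM in supplemented cow 3 and control cows 3, 4 and 5, and at 0 to 0.3295 CPM in the other 8 cows.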
